A study of Mus musculus with 12 samples.

Results

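The Rnf genes encode proteins with a RING finger, most of them ubiquitin ligases, and were taken as every symbol of the count table made of Rnf, a number and at most 1 letter. This rule found 82 of the 55418 symbols, all of them protein coding in GENCODE, and 6 other symbols that begin with Rnf (such as the pseudogene Rnf170-ps) lay outside it. Of the 82 genes, 31 had 0 counts in every cell, 7 had 1 to 19 counts in all and 44 had 20 or more, which was the minimum set for comparing genotypes. The question was how many Rnf genes can be seen in single tendon cells, how evenly, and whether Rnf130 and Rnf167 stood apart from the rest of the family.

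The data are RNA counts from 12 single cells of uninjured, untreated mouse Achilles tendons, 6 Tnmd-/- ScxGFP+ and 6 Tnmd wild-type (WT) ScxGFP+ cells, both on a C57BL/6 background. Tnmd encodes tenomodulin, a membrane glycoprotein of tendon cells, and ScxGFP is a green fluorescent reporter driven by the regulatory sequence of the tendon transcription factor Scx, which all 12 cells carried. Tendons were digested with collagenase for 8 h, GFP+ cells were picked with a micromanipulator, and RNA was amplified by Smart-Seq2, which copies whole transcripts and tags no molecules. The knockout was in every cell of the animal. Tnmd is X-linked, and the study's WT group as a whole held hemizygous males and both homozygous and heterozygous females. The age of the donors of these cells was not given, and although n = 2 is stated for the tendons, no label ties a cell to an animal. Each genotype was therefore treated as 1 sample, no test was made between genotypes, and cells are given by their own values. Cells are named by the number in their label.

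A RING finger is a zinc-binding fold that holds a ubiquitin-loaded E2 enzyme next to a substrate, so that ubiquitin passes to it. The chain that is built decides whether the substrate goes to the proteasome, to the lysosome or to a new place in the cell. Most RING ligases bring the E2 and the substrate together without taking the ubiquitin themselves, while the RING-between-RING (RBR) ligases first accept it on a cysteine. Rnf130 and Rnf167 belong to another kind, the PA-TM-RING or goliath family, membrane proteins of endosomes and lysosomes with a protease-associated (PA) domain in the lumen and the RING finger in the cytosol.

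Total counts ran from 892713 to 10333351 in the Tnmd-/- cells and from 4516036 to 13613080 in the WT cells. The annotation bar of the study's heat map, not the sample labels, marks Tnmd-/- cells 9, 10 and 20 and WT cells 4, 5 and 10 as less degraded and the other 3 cells of each genotype as more degraded. The mitochondrial share was 51.8% in Tnmd-/- cell 3 and 1.75% to 7.30% elsewhere. The targeted gene, Tnmd, summed to 8 counts over the Tnmd-/- cells, and its 10185 WT counts came almost all from cell 14 (2254 CPM, counts scaled to a total of 1000000), with 1.45 CPM in WT cell 2 and 0 in the other 4 WT cells. It therefore did not separate most WT cells from the Tnmd-/- cells. All 9 tendon fibroblast markers had 20 or more counts, and they summed to 1560 to 76585 CPM in Tnmd-/- cells and 24882 to 156772 CPM in WT cells, mostly Dcn (decorin). The lowest of these sums was that of Tnmd-/- cell 3 (Dcn 928 CPM). Scx had 10 or more counts in 3 WT cells and in 0 Tnmd-/- cells. Mkx had them in 2 WT and 1 Tnmd-/- cells, Col1a1 in 4 and 1 and Col3a1 in 2 and 2, while Dcn and Col1a2 had them in all 12 cells. The 5 endothelial markers summed to 4.76 CPM in the pooled Tnmd-/- and 0.0561 CPM in the pooled WT cells (highest cell 30.9, with Cdh5 and Emcn at 0), and the 5 immune markers to 0.342 and 0 CPM, with 4 of 5 at 0, Ptprc among them. Mural markers reached 191 CPM in a Tnmd-/- and 668 CPM in a WT cell, mostly Cspg4, with Rgs5 and Myh11 at 0, and skeletal muscle markers at most 6.72 CPM. Cartilage markers summed to 124 to 16864 CPM in Tnmd-/- and 2474 to 20166 CPM in WT cells, mostly Comp (9290 and 9863 CPM pooled). Of the others, Col2a1 and Matn3 were at 0. Acan stood at 556 and 28.3 CPM pooled (up to 1042 CPM in Tnmd-/- cell 10) and Sox9 at 155 and 36.9 CPM.

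Rnf130, Rnf167 and Rnf19b are the members that met both of the stricter rules given below, and Rnf13 is the goliath relative of the first 2 with the most counts. The 250 bases before the transcript start listed for each gene in the RefSeq promoter table (GRCm38.p6, plus strand) are shown for these 4 genes, with capitals marking a GC box (GGGCGG or its reverse complement) or a TATA box (TATAAA or its reverse complement).
Rnf130 (chr11:50025081-50025330): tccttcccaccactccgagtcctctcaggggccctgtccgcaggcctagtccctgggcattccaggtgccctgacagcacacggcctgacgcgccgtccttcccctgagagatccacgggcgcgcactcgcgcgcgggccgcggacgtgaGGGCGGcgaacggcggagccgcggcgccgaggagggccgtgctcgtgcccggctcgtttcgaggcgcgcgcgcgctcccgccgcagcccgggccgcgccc
Rnf167 (chr11:70646985-70647234): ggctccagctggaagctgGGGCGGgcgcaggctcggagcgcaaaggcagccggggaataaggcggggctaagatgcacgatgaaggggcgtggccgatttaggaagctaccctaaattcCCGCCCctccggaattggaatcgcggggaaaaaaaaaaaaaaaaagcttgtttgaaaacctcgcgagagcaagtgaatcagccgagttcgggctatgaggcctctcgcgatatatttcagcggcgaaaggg
Rnf19b (chr4:129057894-129058143): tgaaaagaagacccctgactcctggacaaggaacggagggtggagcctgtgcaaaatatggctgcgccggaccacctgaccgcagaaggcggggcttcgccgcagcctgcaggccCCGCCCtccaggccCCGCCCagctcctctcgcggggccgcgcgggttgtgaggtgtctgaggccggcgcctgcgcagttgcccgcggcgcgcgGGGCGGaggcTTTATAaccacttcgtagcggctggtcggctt
Rnf13 (chr3:57735807-57736056): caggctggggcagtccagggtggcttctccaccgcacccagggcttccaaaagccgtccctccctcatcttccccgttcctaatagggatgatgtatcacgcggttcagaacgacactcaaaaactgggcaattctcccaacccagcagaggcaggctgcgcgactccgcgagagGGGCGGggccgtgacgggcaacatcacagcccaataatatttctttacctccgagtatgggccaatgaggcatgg
All 4 stretches held a GC box, 1 in Rnf130 and Rnf13, 2 in Rnf167 and 3 in Rnf19b, and a TATA box was found in Rnf19b alone of the 4. The letters of the E-box CATCTG were in none of them. CpG pairs numbered 39 in Rnf130, 21 in Rnf167, 26 in Rnf19b and 14 in Rnf13, and GC content was 76.4%, 56.4%, 69.2% and 58.8%. For Rnf13 and Rnf167 the listed start lies a few bases inside the RefSeq gene, so the last bases shown belong to it. The RefSeq table matched 64 of the 82 genes with 82 promoters. A GC box was in 66.7% of the 45 promoters of Rnf genes with 20 or more counts, in 58.1% of the 8570 promoters of all genes with 20 or more counts and in 32.7% of all 32851 promoters. The TATA letters were in 8.89%, 6.63% and 12.4% of these sets, the E-box in 6.67%, 9.73% and 14.4%, and the median number of CpG pairs was 18, 16 and 6. These matches describe letters and do not show binding.

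Detection was patchy. A gene was called seen in a cell at 10 counts or more, and 45 Rnf genes were seen in at least 1 cell, 24 of them in both genotypes, 8 in Tnmd-/- cells alone and 13 in WT cells alone. The median gene of the 45 was seen in 3 of 12 cells, against 2 cells for all 10123 genes seen and 2 for the 24 seen members of the Trim family, another large family of RING ligases. A single cell held 13 of the 45 (28.9%, against 42.0% of all genes seen), no Rnf gene was seen in all 12 cells (213 genes of all were), and 2 were seen in 8 or more cells (4.44%, against 10.7% of all genes seen). These were Rnf11, a partner of ubiquitin-editing complexes on endosomes, in 11 cells, and Rnf4, which ubiquitinates proteins carrying SUMO chains, in 8. Of the 82 genes 53.7% had 20 or more counts, against 37.2% of all 21990 protein-coding genes. The exons of the 44 genes with 20 or more counts had a median length of 4620 bases, and those of the other Rnf genes 3351 bases.

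Within the 44 genes the values were close to on or off. Of 528 values (44 genes in 12 cells), 297 were 0, 94 were 1 to 9 counts and 137 were 10 or more, of which 112 reached 100. The shares, 56.2%, 17.8% and 25.9%, lay near those over the 9768 genes of all symbols with 20 or more counts, 57.2%, 15.8% and 27.0%. In the median seen Rnf gene a single cell supplied 77.4% of the counts, against 83.7% over all seen genes and 93.9% over the Trim genes. The plot of all seen members by cell shows this as isolated bright fields rather than bands.

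**Figure D1:**
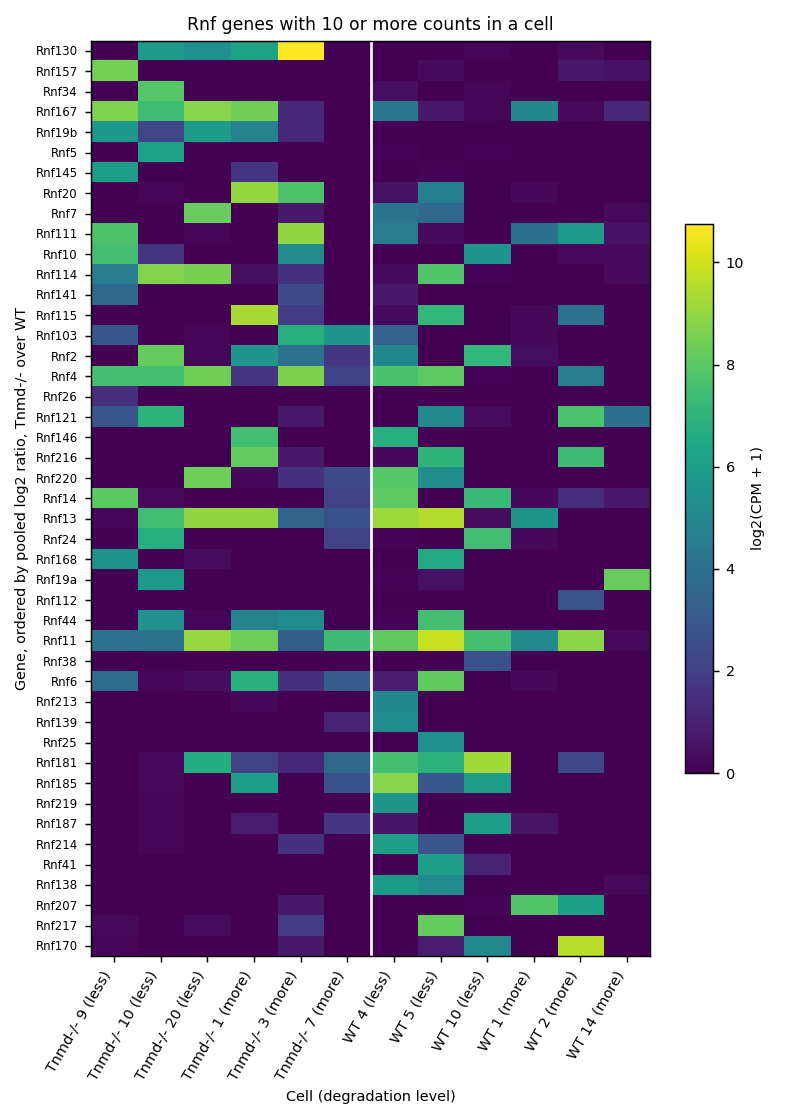
Level of the 45 Rnf genes with 10 or more counts in a cell, as log2(CPM + 1) by colour, with 1 column per cell (6 Tnmd-/- left of the white line, 6 WT right of it, degradation level in brackets) and genes ordered by the pooled log2 ratio of the genotypes. Rnf11 is the row with the most filled fields (11 of 12 cells at 10 or more counts), while most other rows have 1 to 4. Rnf130 and Rnf19b reach 10 counts in Tnmd-/- columns alone, and Rnf167 does so in 4 Tnmd-/- and 2 WT columns.

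The number of Rnf genes seen per cell was 16, 10, 3, 16, 15 and 10 in Tnmd-/- cells 1, 3, 7, 9, 10 and 20, and 5, 10, 19, 21, 11 and 2 in WT cells 1, 2, 4, 5, 10 and 14. The genotypes overlapped, and the lowest numbers were in the more degraded cells, which had 2 to 16 (median 7.5) against 10 to 21 (median 15.5) in the less degraded cells. Depth moved with the degradation level, from 892713 to 5991316 total counts in the more and 6742665 to 13613080 in the less degraded cells. When every cell was thinned to the total of the shallowest, the numbers were 13, 9, 3, 12, 13 and 10 in Tnmd-/- cells and 5, 8, 18, 17, 9 and 2 in WT cells. The summed level of the family was 267 to 3180 CPM (median 2508) in Tnmd-/- and 319 to 3660 CPM (median 1653) in WT cells. The leading gene gave from 17.2% (Rnf11 in Tnmd-/- cell 20) to 94.2% (Rnf19a in WT cell 14) of the family's counts.

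**Figure D2:**
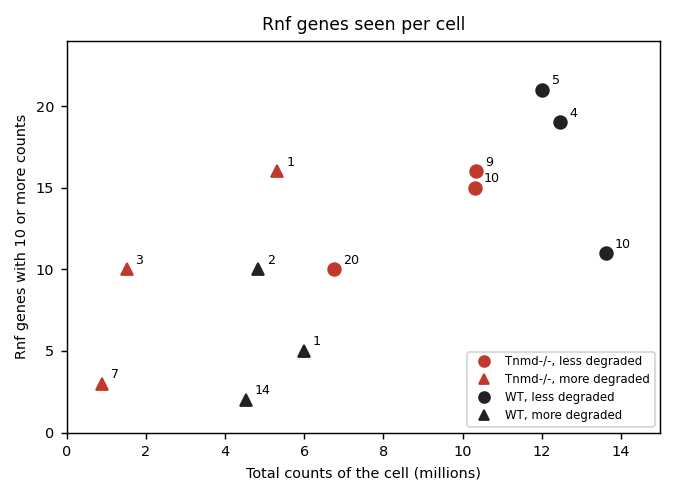
Number of Rnf genes with 10 or more counts in each cell against the total counts of the cell (unit 1000000), red for Tnmd-/- and black for WT, circles for less and triangles for more degraded cells, numbers for the cell. The circles lie to the right, with 10 to 21 genes, and the triangles to the left, with 2 to 16, while red and black points mix.

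Summed over the cells of a genotype, the family stood at 2330 CPM in Tnmd-/- and 2053 CPM in WT cells. Without Rnf130 and Rnf167 the sums were 1912 and 2045 CPM, since this pair gave 17.9% of the family's counts in Tnmd-/- cells and 0.403% in WT cells. The pooled log2 ratio (CPM of the summed Tnmd-/- cells plus 1 over that of the summed WT cells plus 1) had a median of -0.42 over the 44 genes, 19 above and 25 below 0, against 0.06 over all 9768 genes and 0.91 over the Trim genes. Setting the genes at 0 in a genotype to their bound left the median the same. This was fixed in advance, since each gene moved further from the median on its own side. The median turned to 0.04 without WT cell 4, 0.42 without WT cell 5, 0.61 in the more degraded cells and 0.03 with a minimum of 1 count. Its sign therefore depended on single cells and on the minimum.

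A gene was called higher or lower when the pooled ratio passed 8-fold, that is 3 on the log2 scale. Of the 44 genes 8 were higher in Tnmd-/- (18.2%, against 17.2% of all genes) and 12 lower (27.3%, against 19.9%), so ratios past 8-fold were common over all genes. The number of higher calls became 14 without WT cell 5, 13 in the more degraded cells (29.5%, against 18.9% of all genes) and 5 with 5 CPM added. That of lower calls became 4 in the more degraded cells (9.09%, against 17.6% of all genes) and 4 with 5 CPM added. It was 7 with equal cell weights and 3 with DESeq2 factors and equal cell weights. Which direction had more calls among the 44 therefore depended on the setting. No share over all genes is given for the other settings, so these shifts cannot be read as particular to the Rnf genes. The higher genes were Rnf130, Rnf157, Rnf34, Rnf167, Rnf19b, Rnf5, Rnf145 and Rnf20, and the lower ones Rnf170, Rnf217, Rnf207, Rnf138, Rnf41, Rnf214, Rnf187, Rnf219, Rnf185, Rnf181, Rnf25 and Rnf139. A first stricter rule asked for 10 or more counts in at least 4 of the 6 cells of the higher genotype. It left 3 higher genes (Rnf130, Rnf167 and Rnf19b, 6.82% of 44, against 0.778% of all genes) and 1 lower gene (Rnf181, 2.27%, against 1.3%). Since Rnf130 and Rnf167 were picked by the study on these same cells, their calls are no independent evidence, and without them 1 of 42 genes was higher by this rule (2.38%). Only 6 of the 44 were seen in 4 or more Tnmd-/- cells at all, and 2 in 4 or more WT cells. The rule selects on the cells of the genotype where a gene is high. Passing it, by Rnf19b too, is therefore description and no support for a difference. A second rule asked for 8-fold in the same direction at both degradation levels. It named the same 3 higher genes (6.82%, against 2.4% of all genes, and 1 of 42 without the pair) and Rnf170 as lower (2.27%, against 3.06%). Of all 9768 genes 43 met both rules in the higher direction, Rnf130, Rnf167 and Rnf19b among them. No Rnf gene had every Tnmd-/- cell above every WT cell, or the reverse, and over all genes each of these shares was 0.0205%.

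**Figure D3:**
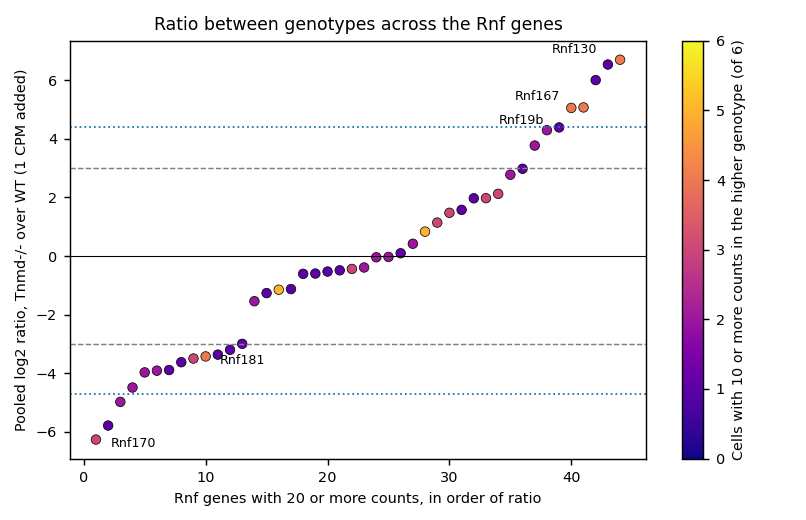
Pooled log2 ratio of Tnmd-/- over WT with 1 CPM added for the 44 Rnf genes with 20 or more counts, in order of size, coloured by the number of cells (of 6) with 10 or more counts in the genotype where the gene was higher. Grey dashed lines mark 8-fold (3 and -3) and blue dotted lines the lower and upper decile limits over all 9768 genes (-4.69 and 4.40), and among the points above 3 the seen cells number 4 for Rnf130, Rnf167 and Rnf19b and 1 or 2 for the other 5.

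Counts of calls and medians for the lists of roles that follow use the ratio with 1 CPM added, by which 17.2% of all genes were higher and 19.9% lower past 8-fold, and with 2 to 8 genes tested a list is too short to be read against these shares. Ratios of single genes are without added CPM unless stated. Among the goliath family, 3 of 9 members had 20 or more counts and the other 6 (Rnf43, which removes Wnt receptors from the cell surface, Rnf128, known from T-cell anergy, Rnf133, Rnf148, Rnf149 and Rnf150) were at 0 in all cells. At the summed depth a gene at 0 lay below 0.0855 CPM in Tnmd-/- and 0.0561 CPM in WT cells, taking 3 counts as the limit. Rnf130 (ENSMUSG00000020376, chr11:50025346-50104758, plus strand), named after fly goliath, had 375, 2600, 0, 0, 563 and 277 counts in Tnmd-/- cells 1, 3, 7, 9, 10 and 20. In the WT cells it had 1 count in cell 2, 2 in cell 10 and 0 in the others. The levels were 0 to 1728 CPM (median 47.9) and 0 to 0.207 CPM, and the groups overlapped only because 2 Tnmd-/- cells were at 0. Tnmd-/- cell 3, the cell with the high mitochondrial share and the lowest summed tendon fibroblast markers, gave 68.2% of its Tnmd-/- counts. The sums, 3815 and 3 counts or 109 and 0.0561 CPM, gave a log2 ratio of 10.92 with a counting interval of 9.37 to 13.20. Without cell 3 the Tnmd-/- sum was 36.2 CPM and the log2 ratio 9.33.

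Rnf167 (ENSMUSG00000040746, chr11:70647235-70651421, plus strand), an endosomal and lysosomal ligase that acts on AMPA receptor traffic in neurons, had 1864, 2, 0, 4190, 1755 and 3023 counts in the same Tnmd-/- cells. In WT cells 1, 2, 4, 5, 10 and 14 it had 185, 1, 237, 8, 2 and 6. The levels were 0 to 448 CPM (median 261) and 0.147 to 30.9 CPM (median 0.997). Tnmd-/- cells 1, 9, 10 and 20 were above every WT cell and cells 3 and 7 were not. The sums of 10834 and 439 counts, 309 and 8.21 CPM, gave a log2 ratio of 5.23 (5.09 to 5.37). Exons of Slc25a11 overlap 5.34% of its exon bases, and reads there cannot be assigned. Both genes were seen in Tnmd-/- cells 1, 10 and 20, Rnf130 alone in cell 3 and Rnf167 alone in cell 9, so 5 of 6 Tnmd-/- cells held at least 1 of them, against 2 WT cells. Counting intervals and limits cover counting error only, since amplified reads without molecular tags are not independent molecules.

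Rnf13 (chr3:57736062-57835233), a goliath relative linked to signalling from the stressed endoplasmic reticulum (ER), gave the contrast. It had 2676, 15, 5, 1, 1800 and 3417 counts in Tnmd-/- cells and 303, 0, 7171, 8895, 4 and 0 in WT cells. High and low cells occurred in both genotypes, and the log2 ratio of the sums was -0.44 (-0.48 to -0.40). With 1 CPM added it was -1.14 in the less and 4.08 in the more degraded cells. As a list the goliath genes had a median of 5.07, with 2 of 3 higher past 8-fold and 0 lower, but Rnf130 and Rnf167 were chosen by the study on these same cells, so this is no independent evidence for the list.

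**Figure D4:**
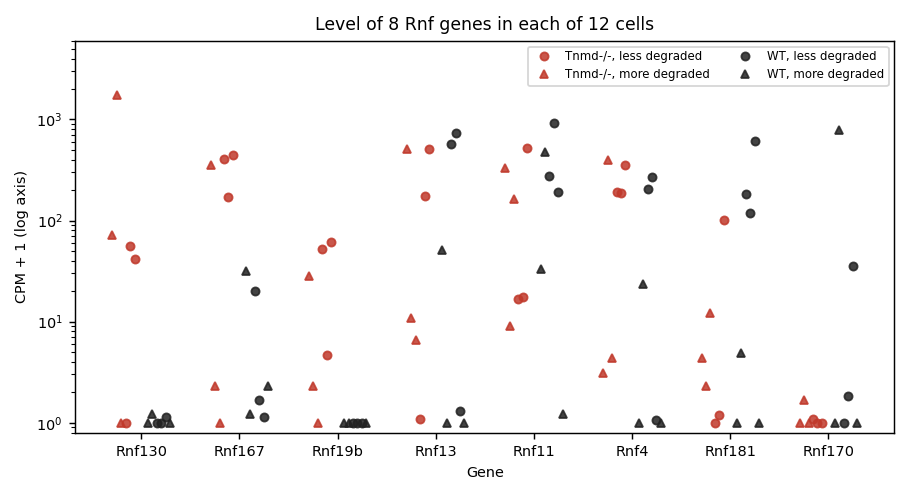
Level of 8 Rnf genes in each of the 12 cells as CPM + 1 on a log axis, red for Tnmd-/- and black for WT, circles for less and triangles for more degraded cells. For Rnf130 4 red points lie at 41.1 CPM or more and all black points at the base, for Rnf167 4 red points lie above every black point, and for Rnf13, Rnf11 and Rnf4 red and black points cover the same range.

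Ranked by the ratio with 1 CPM added, Rnf130 was the first (6.70) and Rnf167 the fourth (5.07) of the 44, with Rnf157 (6.54), Rnf34 (6.00), Rnf19b (5.05) and Rnf5 (4.39) around them. Without added CPM Rnf130 kept rank 1 and Rnf167 took rank 7. The neighbours in rank differed in how many cells carried them. Rnf157 had 3707 of its Tnmd-/- counts in cell 9 and 0 in the other 5, Rnf34, a ligase for caspases, had all its 2469 in cell 10 (14.1% of its exon bases overlap Kdm2b), and Rnf5, which acts in degradation of ER proteins, had all its 727 in cell 10. Of all 9768 genes 73 (0.747%) had a ratio at or above that of Rnf130 and 633 (6.48%) at or above that of Rnf167. Over the alternatives the rank of Rnf130 was 1 to 5 (5 in the less degraded cells, 3 without Tnmd-/- cell 3) and that of Rnf167 was 1 to 11 (11 in the more degraded cells, and 1 with 5 CPM added, where Rnf130 was at 2).

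By total count rather than ratio the pair was less apart, but not by mean level per exon length. Rnf167 had the fifth and Rnf130 the fifteenth highest total count of the family. Per exon length (RPKM, CPM per kilobase of exon) the mean over 12 cells was highest for Rnf130 (101), then Rnf11 (57.8), Rnf167 (33.6), Rnf181 (30.3) and Rnf114 (26.0). The mean of Rnf130 rested on cell 3 (1109 RPKM), with 26.4 to 45.3 RPKM in the other 3 cells that had it, and on its short annotated exon length of 1558 bases. RefSeq ends Rnf130 20961 bases beyond the annotation used for counting, the largest such gap among the 81 Rnf genes matched. In 5 of them (Rnf130, Rnf214, Rnf125, Rnf122 and Rnf212) the gap was over 1000 bases. Reads in such a tail would not have been counted, and their part in the Rnf130 values was not tested.

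Of 8 RBR ligases 5 had 20 or more counts (median log2 ratio -0.39, 1 higher and 1 lower past 8-fold) and Rnf31, the catalytic subunit of the linear ubiquitin complex, Rnf144a and Rnf144b were at 0. Rnf19b (chr4:129058271-129085886), known from natural killer cells and macrophages, had the highest ratio and the fewest counts of the 5, with 145, 2, 0, 535, 38 and 411 in Tnmd-/- cells 1, 3, 7, 9, 10 and 20 and 0 in all 6 WT cells. Tnmd-/- cell 7 alone shared the WT value of 0. With 1131 counts against 0 it was at least 9.17 log2 units higher in the Tnmd-/- sum, against 3 counts in the WT sum. It was the only one of the 44 at 0 in WT, while 5 were at 0 in Tnmd-/- cells. Of all genes 4, Rnf19b included, had 0 WT counts and were seen in 4 or more Tnmd-/- cells. Both conditions select on the contrast between the genotypes, so this number is description only. Its relative Rnf19a was carried by Tnmd-/- cell 10 (579 counts) and WT cell 14 (1356), with a log2 ratio of -0.63. Rnf217 had 3564 WT counts in cell 5 and 0 in the other WT cells, against 8 in the Tnmd-/- sum (-8.19). Rnf14, a coactivator of the androgen receptor (2725 and 5458 counts, -0.40), and Rnf216 (1536 and 2391, -0.03) were seen in 1 Tnmd-/- and 2 WT cells each.

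Of 9 members that act on chromatin, DNA breaks or SUMO chains, 6 had 20 or more counts (median 0.99, 1 higher and 1 lower), and Rnf8 and Rnf40 were at 0. Rnf40 works as a partner of Rnf20 on histone H2B. Rnf20 had 2727 counts in Tnmd-/- cell 1, 323 in cell 3 and 285 in WT cell 5, with at most 5 in any other cell. Its log2 ratio was 4.00 (3.82 to 4.18), from 2 Tnmd-/- cells that were both more degraded. Rnf4 was the most widely seen of the group, with 11, 599, 3, 1955, 1902 and 2399 counts in Tnmd-/- and 0, 110, 2528, 3211, 1 and 0 in WT cells. Its levels overlapped and the log2 ratio was 0.84 (0.79 to 0.89). Rnf2, the Polycomb ligase for histone H2A, summed to 3314 and 2259 counts (1.16), of which cell 10 of each genotype held 3036 and 1885. Rnf111 (Arkadia), which raises TGF-beta signalling, had 2242 counts in Tnmd-/- cell 9, 748 in cell 3 and 0 or 1 in the rest, against 87, 256, 272, 3, 0 and 2 in the WT cells (2.88). Rnf138 had 711 and 433 counts in WT cells 4 and 5 and 0 in every Tnmd-/- cell, which bounds its log2 ratio at -7.97 or lower against 3 counts.

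Among 11 ligases of ER or Golgi membranes 7 had 20 or more counts (median 0.42, 2 higher and 3 lower), and Rnf122, Rnf183 and Rnf186 were at 0. Rnf170, which targets activated inositol trisphosphate receptors, had the lowest ratio of all 44. Its WT counts were 0, 3799, 0, 10, 475 and 0 in cells 1, 2, 4, 5, 10 and 14, against 1 count in each of Tnmd-/- cells 3 and 9. The sums of 2 and 4284 counts gave -10.46 (-13.50 to -8.60), with WT cell 2 holding most. Rnf185, a partner of Rnf5 in ER degradation, had 5635, 79 and 876 counts in WT cells 4, 5 and 10 and 344 in Tnmd-/- cell 1 (-3.62). Rnf145 and Rnf139, which both act on sterol synthesis, lay on opposite sides, with 655 of 666 Tnmd-/- counts of Rnf145 in cell 9 against 1 WT count (9.99, 7.50 to 15.29), and 452 counts of Rnf139 in WT cell 4 against 1 (-8.21, -13.52 to -5.73). Rnf121 summed to 1323 and 1494 counts (0.43). The calls of Rnf5, Rnf139 and Rnf145 each rested almost wholly on a single cell. Exons of other genes overlap 24.7% of the exon bases of Rnf5 and 26.2% of those of Rnf139.

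Of 15 members of signalling pathways 8 had 20 or more counts (median 0.03, 1 higher and 1 lower) and Rnf31, Rnf43, Rnf128, Rnf165 and Rnf166 were at 0. Rnf11 had 1757, 12, 145, 163, 169 and 3543 counts in Tnmd-/- cells and 194, 2293, 3433, 11108, 2610 and 1 in WT cells, so that WT cell 14 was the only cell below 10. The ratio of its sums was -1.16 (-1.20 to -1.11) and the genotypes overlapped over most of their range. Rnf114 had 226, 4370 and 2514 counts in Tnmd-/- cells 9, 10 and 20 and 2712 in WT cell 5 (2.00). Rnf220, which stabilises beta-catenin, had 2255 in Tnmd-/- cell 20 and 3086 and 465 in WT cells 4 and 5 (-0.04). Rnf146, which recognises poly(ADP-ribose) on axin, had 956 counts in Tnmd-/- cell 1, 1360 in WT cell 4 and 0 in the other 10 cells, but 76.8% of its exon bases overlap other genes, Echdc1 among them. Rnf41, a regulator of ErbB receptors, had 770 and 15 counts in WT cells 5 and 10 and 0 in Tnmd-/- cells, which bounds its log2 ratio at -7.42 or lower.

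Of 9 soluble members 7 had 20 or more counts (median 1.58, 0 higher and 3 lower), with Rnf126 at 0. Rnf181 was the only lower gene seen in 4 WT cells, with 0, 19, 2290, 1425, 8382 and 0 counts in WT cells 1, 2, 4, 5, 10 and 14 and 18, 2, 10, 0, 2 and 676 in the Tnmd-/- cells. The groups overlapped, with WT cells 1 and 14 at 0 and WT cell 2 at 3.94 CPM, against 11.2 CPM in Tnmd-/- cell 7 and 100.3 CPM in cell 20. Its log2 ratio was -3.49 (-3.60 to -3.38) over all cells, and with 1 CPM added it was -3.63 in the less and 1.13 in the more degraded cells. Rnf7, the RING subunit of a cullin complex, had 2040 of 2041 Tnmd-/- counts in cell 20 (3.16, or 2.98 with 1 CPM added and so not called), Rnf115 had 3462 in Tnmd-/- cell 1 and 1656 in WT cell 5 (1.60), and Rnf10, largely, 1908 in Tnmd-/- cell 9 and 650 in WT cell 10 (2.21). Of 12 members known mainly from germ cells or neurons 9 were at 0, and Rnf212b had 2 counts. The 2 with 20 or more counts, Rnf157 (9.46) and Rnf112 (28 counts in WT cell 2 and 0 elsewhere), were each seen in 1 cell, with a list median of 2.96 and 1 higher and 0 lower call. Rnf207, known from heart muscle, stood in no list and had 1348 and 330 counts in WT cells 1 and 2 against 1 in the Tnmd-/- sum (-10.11, -15.41 to -7.63).

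The ratio of a gene often differed between the degradation levels. In the less degraded cells (3 against 3) 9 of the 44 were higher past 8-fold (20.5%, against 15.1% of all genes) and 17 lower (38.6%, against 19.7%). In the more degraded cells 13 were higher (29.5%, against 18.9%) and 4 lower (9.09%, against 17.6%). The opposite direction past 8-fold in the 2 levels was found for 6 genes, Rnf115, Rnf20, Rnf6, Rnf146, Rnf185 and Rnf19a, 13.6% of the 44 against 4.94% of all genes. For Rnf185 the log2 ratios were -7.34 in the less and 5.53 in the more degraded cells, and for Rnf19a 4.26 and -6.48. Rnf130 had 4.91 and 8.50, Rnf167 5.46 and 4.17 and Rnf19b 5.21 and 4.33, all with 1 CPM added. Within the less degraded cells every Tnmd-/- cell was above every WT cell for Rnf167 and Rnf19b (2 of 44, 4.5%, against 2.55% of all genes). There every WT cell was above every Tnmd-/- cell for Rnf181 and Rnf185 (2, 4.5%, against 2.67%). Within the more degraded cells the first held for Rnf2, Rnf220 and Rnf6 (3, 6.82%, against 2.89%), whose lowest Tnmd-/- values were 2, 1 and 3 counts. The reverse held for none (against 1.48%). Since depth and degradation move together and each level holds 3 cells a genotype, their parts in these ratios cannot be told apart.

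**Figure D5:**
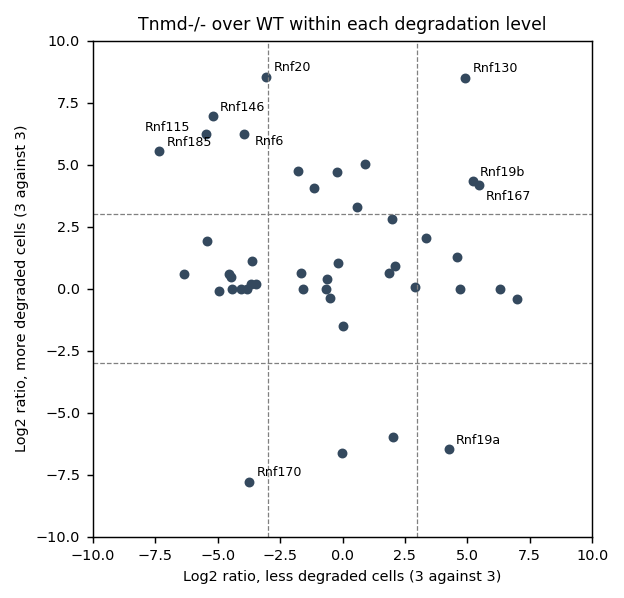
Log2 ratio of Tnmd-/- over WT (1 CPM added) in the more degraded cells against that in the less degraded cells, 3 cells of each genotype in each, with 1 point per Rnf gene of 44 and dashed lines at 8-fold. Rnf130, Rnf167 and Rnf19b lie beyond both lines at the upper right, Rnf170 alone at the lower left, and 6 genes lie in the opposite corners.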

How the data were processed

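RNA was measured by Smart-Seq2 in 6 Tnmd-/- and 6 WT ScxGFP+ cells. The authors deposited raw counts per gene and cell: per the study's methods, reads were trimmed, those not mapping exclusively to mouse were discarded (which can remove reads of conserved sequence), and the rest were aligned with STAR 2.5.1b to GRCm38 and counted over exons with featureCounts of Subread 2.0.0. FastQC 0.11.9 and MultiQC 1.9 are also named in the submitters' processing notes. The strand setting of counting is not given in the sources used here. All values were checked to be whole numbers, and no pair of cells had identical columns. Exon lengths equal those of GENCODE for all 82 Rnf genes, which gave the coordinates and overlaps, and 12 of them have over 10% of their exon bases shared with another gene.

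Counts were summed per genotype (35088506 Tnmd-/- and 53439236 WT) and scaled to 1000000 (CPM), and ratios were formed with 1 CPM added for genes with 20 or more counts and with none for single genes, with exact 95% binomial intervals that cover counting error only. With 1 sample per genotype no test was made. Genes at 0 in a genotype were bounded against 3 counts in its sum. The members and lists were chosen with earlier results of these data known, and Rnf130 and Rnf167 by the study on these cells. Genes were named when in the goliath list, among the 10 highest mean RPKM or 5 highest or lowest ratios, seen in 8 or more cells, called by a stricter rule, next in rank to Rnf130 or Rnf167, or among the 4 with most counts of a list. Rnf6, Rnf139, Rnf145, Rnf146 and Rnf219 and other members named only in lists of calls were named after their values were seen. Alternatives were equal cell weights, these with factors of DESeq2 1.42.0 or edgeR 4.0.16 (TMM), each degradation level, each cell left out, 5 CPM added, minima of 1 and 100 counts, 1 count for detection and thinning. Totals free of mitochondrial counts and leaving out Tnmd-/- cells 3 and 7 were chosen after seeing the data. The ratio calculation was tested on simulated data. Software was R 4.3.3, Python 3.11.15, scipy 1.17.1, pandas 2.3.3, numpy 2.4.6 and matplotlib 3.10.9.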

Additional observations from a re-analysis of the deposited data

Results flagged for a closer look

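A cell stood far above the other 5 of its genotype, by Dixon's gap ratio for 6 values, in 33 of 62 sets of values that were checked (29 named Rnf genes, the number seen and the summed level, in each genotype). Chance alone flags about 1 in 20 such sets of normally distributed values, and sparse counts are not so distributed. Every flag was for a highest cell. For 11 genes it occurred in both genotypes. These were Rnf10 (185 CPM in Tnmd-/- cell 9 and 47.7 CPM in WT cell 10), Rnf115 (652 CPM in Tnmd-/- cell 1 and 138 CPM in WT cell 5), Rnf121 (122 CPM in Tnmd-/- cell 10 and 208 CPM in WT cell 2), Rnf170 (0.665 CPM in Tnmd-/- cell 3 and 787 CPM in WT cell 2), Rnf181 (100.3 CPM in Tnmd-/- cell 20 and 616 CPM in WT cell 10), Rnf185 (64.8 CPM in Tnmd-/- cell 1 and 452 CPM in WT cell 4). They also included Rnf19a (56.2 CPM in Tnmd-/- cell 10 and 300.3 CPM in WT cell 14), Rnf2 (295 CPM in Tnmd-/- cell 10 and 138 CPM in WT cell 10), Rnf207 (0.665 CPM in Tnmd-/- cell 3 and 225 CPM in WT cell 1), Rnf217 (2.66 CPM in Tnmd-/- cell 3 and 297 CPM in WT cell 5), Rnf220 (334 CPM in Tnmd-/- cell 20 and 247 CPM in WT cell 4). In the Tnmd-/- cells alone the highest cell stood apart for Rnf130 (1728 CPM in cell 3), Rnf14 (263 CPM in cell 9), Rnf157 (359 CPM in cell 9), Rnf216 (289 CPM in cell 1), Rnf34 (239.6 CPM in cell 10), Rnf5 (70.6 CPM in cell 10), Rnf7 (303 CPM in cell 20). In the WT cells alone it did so for Rnf112 (5.8 CPM in cell 2), Rnf114 (226 CPM in cell 5), Rnf20 (23.7 CPM in cell 5), Rnf41 (64.1 CPM in cell 5). Rnf167 and Rnf19b had no cell standing apart in this way in the Tnmd-/- cells. Neither did Rnf4, Rnf11, Rnf13, Rnf111, Rnf114 and Rnf20, so this was not particular to Rnf167 and Rnf19b. For Rnf170, Rnf207 and Rnf217 the Tnmd-/- values are 1 to 4 counts in cell 3.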

How the results depend on the processing

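No paired analysis was possible because the cell numbers are names, shared numbers mark no common animal and no test was made. The log2 ratio of Rnf130 (10.92) was 15.58 with DESeq2 factors and equal cell weights (12.38 with equal weights alone), 9.19 in the less degraded cells, 9.37 without Tnmd-/- cells 3 and 7, and 9.33 to 12.08 with each cell left out, the lowest without Tnmd-/- cell 3. Rnf167 (5.23) had 4.72 with equal cell weights, 4.51 with DESeq2 factors and 4.56 with TMM factors on top of these, 5.66 in the less and 4.27 in the more degraded cells, and 4.81 to 5.97 with each cell left out. Higher calls (8) became 5 with 5 CPM added, 13 in the more degraded cells and 7 to 14 with each cell left out (14 without WT cell 5). Lower calls (12) became 4 with 5 CPM added, 7 with equal weights, 3 with DESeq2 factors and equal weights, 4 in the more degraded cells and 8 to 17 with each cell left out (8 without WT cell 4). Shares over all genes are given only for the main setting and for each degradation level, so the other counts of calls stand without one. Genes with every Tnmd-/- cell above every WT cell (0) numbered 2 in the less (4.5%, against 2.55% of all genes) and 3 in the more degraded cells (6.82%, against 2.89%). With each cell left out they numbered 0 to 1 (Rnf19b, without Tnmd-/- cell 7, its only Tnmd-/- cell at 0). Without Tnmd-/- cells 3 and 7 they numbered 2, Rnf167 and Rnf19b. Both genes had 2 and 0 counts in those cells, which were left out after seeing the data, so this is no independent evidence. Genes with every WT cell above (0) numbered 2 in the less degraded cells (4.5%, against 2.67%) and 0 with any cell left out. No share over all genes is given with cells left out. The family median ranged from -0.65 to 0.61 over all settings, and detection (45 genes) from 41 when thinned to 51 at 1 count. With totals free of mitochondrial counts the calls were 9 and 13. The cause of these shifts was not tested. A gene at 0 in a cell was not detectable at that depth, which does not show that it was absent.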

Other observations

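The median gene of the machinery that supplies ubiquitin to these ligases was seen in 5.5 of 12 cells, against 3 for the seen Rnf genes. All 22 ubiquitin, E1 and E2 genes of the list had 20 or more counts, with a median log2 ratio of -0.08 (11 above and 11 below 0), 1 higher and 2 lower past 8-fold (against 17.2% and 19.9% of all genes). Ubb and Rps27a, which encode ubiquitin, were seen in all 12 cells, Ubb at 298 to 6082 CPM in the Tnmd-/- and 2286 to 4470 CPM in the WT cells. Uba1, the main E1 enzyme, was seen in 3 Tnmd-/- and all 6 WT cells, with a pooled log2 ratio of -0.62 without added CPM. Some of these cells lay near the limit of 10 counts, such as WT cell 1 (1.67 CPM) and Tnmd-/- cell 9 (1.45 CPM). The highest were WT cells 2 and 14 (719 and 406 CPM) and Tnmd-/- cell 20 (391 CPM). Ube2d3, a common E2 of RING ligases, was seen in 6 Tnmd-/- and 5 WT cells. The 3 called genes were E2 enzymes. Ube2j1, which works in degradation of ER proteins, had 528, 488 and 258 CPM in Tnmd-/- cells 1, 3 and 20, 0 in the other 3 and at most 0.834 CPM in a WT cell. Its sums were 5275 and 15 counts, and with 1 CPM added the log2 ratio was 6.88 over all cells, 5.67 in the less and 8.44 in the more degraded cells. Ube2e1 was seen in WT cell 14 alone (195 CPM) and Ube2e3 in WT cells 1 (984 CPM) and 4 (50.7 CPM).

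The Trim family, also RING ligases, had 22 of 68 genes with 20 or more counts. Of these 5 were higher and 4 lower past 8-fold (22.7% and 18.2%, near the 17.2% and 19.9% of all genes). The higher rule of 4 Tnmd-/- cells was met by 0 of the 22 (against 0.778% of all genes) and the lower rule of 4 WT cells by 1 (4.5%, against 1.3%). In both degradation levels 2 were higher (9.09%, against 2.4%) and 0 lower (against 3.06%).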
